A study of Homo sapiens with 6 samples.

Results

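The genes described here encode 36 aminoacyl-tRNA synthetases, the enzymes that join each amino acid to its tRNA. They were chosen by name: 20 cytosolic synthetases (AARS to YARS) and 16 mitochondrial synthetases, whose names end in 2 (AARS2 to YARS2). All 36 were found among the named loci of the deposited comparison table and among the 24143 genes of the per-library assemblies. The cells were HEK293, an established line derived from human embryonic kidney. RNA came from 3 control libraries of untreated cells and 3 heat shock libraries of cells warmed in a tube at 45°C over 30 minutes, all from the same culture conditions and all depleted of ribosomal RNA. The labels do not say whether the 3 libraries of a group came from separate cultures, so p-values measure the spread between these libraries, which may be technical.

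A synthetase reads its tRNA and loads it with the matching amino acid, which the ribosome then adds to the growing protein. Human cells keep a cytosolic set and a mitochondrial set, both encoded in the nucleus. GARS and KARS each serve both compartments. EPRS, IARS, LARS, MARS, QARS, RARS, KARS and DARS sit in the multisynthetase complex, a large cytosolic assembly, and EPRS carries the enzymes for glutamate and proline in 1 protein. The synthetases also fall into a class I and a class II, which differ in the fold of their active site. Amino acid shortage is known to raise many cytosolic synthetase mRNAs through the factor ATF4, whereas heat shock acts through HSF1, which binds heat shock elements.

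The promoters are shown first because they set the synthetases beside the heat shock genes in sequence. RefSeq promoters (GRCh38.p14, 250 bases before to 50 bases after the start site) were at hand for 30 of the 36 genes, 16 of them cytosolic and 14 mitochondrial. The sequence TGATGCAA, a form of the ATF4 response element, was found on either strand in 6 of the 16 cytosolic promoters (37.5%), in 0 of the 14 mitochondrial promoters and in 295 of all 27305 genes with a promoter (1.08%). The windows that hold it are given 5′ to 3′ on the strand of the gene, with the match in capitals.
TARS, chr5:33440941-33440974, plus strand: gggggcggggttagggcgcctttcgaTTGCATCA
IARS, chr9:92293698-92293736, minus strand: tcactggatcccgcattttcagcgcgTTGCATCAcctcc
CARS, chr11:3057418-3057451, minus strand: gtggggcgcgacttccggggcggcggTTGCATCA
MARS, chr12:57488038-57488071, plus strand: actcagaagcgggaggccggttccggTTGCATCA
AARS, chr16:70289660-70289719, minus strand: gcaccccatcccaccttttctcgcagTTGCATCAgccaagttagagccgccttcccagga
NARS, chr18:57621815-57621848, minus strand: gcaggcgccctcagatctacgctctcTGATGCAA
The heat shock element was searched as GAANNTTCNNGAA on both strands. It was found in 0 of the 30 synthetase promoters, in 4 of the 11 promoters of a list of heat shock genes and in 166 of all 27305 (0.608%). The 4 were HSPA8, HSPD1, HSP90AA1 and DNAJA1, and the 3 heat shock genes with the largest differences here, DNAJB1, HSPA1B and HSPA1A, held no match. A pair of the heat shock genes is printed for contrast, HSPA8 (a constitutive HSP70) and HSP90AA1 (an inducible HSP90), with the match in capitals.
HSPA8, chr11:123062153-123062217, minus strand: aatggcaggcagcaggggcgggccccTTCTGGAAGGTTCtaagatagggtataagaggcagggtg
HSP90AA1, chr14:102087094-102087158, minus strand: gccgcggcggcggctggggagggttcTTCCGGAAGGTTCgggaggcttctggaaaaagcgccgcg
The 2 motifs did not overlap in these windows. A match is a run of letters and was not tested for binding, and a promoter without one says only that these letters were not in the window.

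Values are FPKM, a count of fragments divided by transcript length and by library depth, summed over the transcripts of a gene. The libraries were first brought to 1 level, because most abundant genes of a library shared a factor. This factor was 0.938, 0.434 and 0.957 in the control libraries and 2.13, 2.32 and 0.487 in the heat shock libraries, over the 983 genes above 10 FPKM in all 6. Levels are relative to the other RNA of a library, so RNA per cell is not measured. Control replicates 1 and 2 and heat shock replicate 3 also held the most assembled transcripts without a strand (141632 to 194489, against 17304 to 45600 in the other 3), so heat shock replicate 3 stood apart from the other heat shock libraries. Relative depth, read from coverage over FPKM, ran from 1.00 (control replicate 3) to 2.03 (control replicate 1). The labels were checked with heat shock genes: all 11 had a positive difference. As deposited, only HSPA1A, HSPA1B and DNAJB1 did not overlap between groups, and after the common factor 6 did not. Of all 13861 genes tested after it, 3640 had a positive difference and 1.8% did not overlap upwards. HSPD1 (log2 difference 0.04) and HSPB1 (0.28) were among the heat shock genes that overlapped. DNAJB1, an HSP40 co-chaperone, stood at 7.81, 11.1 and 9.59 in control and 56.7, 50.2 and 69.8 in heat shock (limma, log2 difference 2.51, adjusted p = 0.14). Of the 7 marker genes fixed for this line, NEFL (5.03 to 5.70), NEFM (3.31 to 4.21), VIM (196 to 401), KRT18 (14.9 to 34.4) and KRT8 (3.48 to 17.2) were found in all 6 libraries, and the kidney genes PAX2 and LHX1 were low and uneven. PAX2 ranged between 0.138 and 8.76, with its lowest and highest value both among the heat shock libraries, and LHX1 from 0.136 to 1.80. Of the 6 markers of other cells, PTPRC, CD3E, HBB, ALB and COL3A1 stayed at or below 0.792, and COL1A1 was at 1.40 to 7.97, highest in control replicate 2 and heat shock replicate 3. The part of these differences in the results was not tested.

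No synthetase passed the test between heat shock and control. limma on log2(FPKM + 1) called 0 of the 36 at an adjusted p under 0.05 and more than 2-fold, and 0 of all 13861 genes tested (0% higher and 0% lower). At an unadjusted p under 0.05, 1 synthetase was higher (CARS2) and 3 were lower (HARS, MARS and PARS2), against 0.678% and 2.47% of all genes in those directions. In 3 synthetases every heat shock library lay above every control library (CARS, CARS2 and NARS2) and in 3 every one lay below (HARS, MARS and PARS2), against 1.8% and 5.25% of all genes. The median log2 difference was -0.07 for the cytosolic and -0.11 for the mitochondrial synthetases, beside -0.24 for all genes tested. These signs depended on the common factor: with FPKM as deposited the medians were 0.78, 0.58 and 0.45, and 31 of the 36 synthetases had a positive difference in place of 15. As deposited, 2 synthetases were higher at an unadjusted p under 0.05 (QARS and CARS2) and 0 were lower. Without heat shock replicate 3, 12 synthetases in place of 3 lay below all control libraries, where 44% of all genes tested did so.

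These differences depended on how transcripts of unequal length were summed. Cufflinks assembled short transcripts beside or in place of the annotated ones, and 26 of the 36 genes had at least 1 that was shorter than 50% of the annotated length. There were 86 such fragments over the 6 libraries, and 80 of them reached to within 50 bases of the 3′ end of the gene or past it, holding 99.2% of their FPKM. They carried between 23.6% and 63.2% of the summed FPKM of the cytosolic synthetases in a library and between 33.3% and 57.9% of that of the mitochondrial ones, beside 5.81% to 28.8% over all genes tested. Per gene, they gave more than 50% of the FPKM of 22.2% to 40% of the synthetases and of 12.1% to 17.1% of all genes. In the plot of these shares by library, control and heat shock overlap for both sets.

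**Figure D1:**
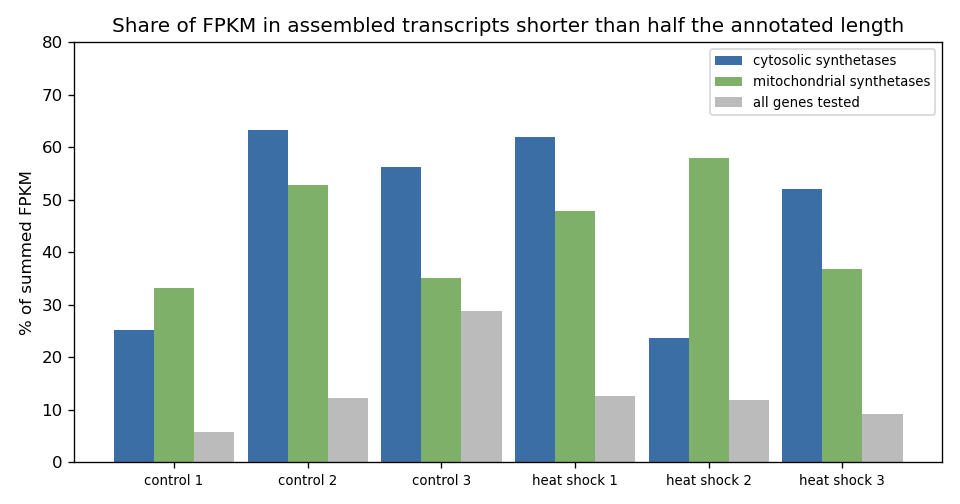
Bars give the percent of summed FPKM held by assembled transcripts shorter than 50% of the longest annotated transcript of their gene, in each library, for the cytosolic synthetases, the mitochondrial synthetases and all genes tested. The cytosolic share runs from 23.6% in heat shock replicate 2 to 63.2% in control replicate 2, and the share over all genes from 5.81% to 28.8%.

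FPKM divides by length, so a short piece of a transcript counts for more than its number of fragments. A second measure was therefore computed after the values had been seen: the FPKM of each transcript times its length, summed over the gene and divided by the length of its longest annotated transcript, called length-weighted FPKM here, with a common factor of its own. The median SD of a synthetase within a group was 0.52 on the log2 scale of summed FPKM and 0.17 on that of length-weighted FPKM, beside 0.57 and 0.41 over all genes tested. The highest library was less than 1.5 times the lowest for 3 of the 36 synthetases by summed FPKM and for 18 by length-weighted FPKM.

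By length-weighted FPKM most cytosolic synthetases stayed close to 1 level: in 15 of the 20 the highest of the 6 libraries was under 1.5 times the lowest, and in 3 of the 16 mitochondrial ones. YARS, the tyrosyl-tRNA synthetase, was at 25.0, 27.5 and 24.5 in control and 24.8, 25.0 and 27.0 in heat shock. FARSB, the beta subunit of the phenylalanyl-tRNA synthetase, was at 13.9, 13.4 and 15.2 in control and 14.3, 13.8 and 14.9 in heat shock. TARS, the threonyl-tRNA synthetase, was at 19.3, 16.8 and 18.7 in control and 17.3, 17.8 and 17.5 in heat shock. The groups overlapped in each of these genes, with log2 differences of -0.003 (SE 0.080), 0.02 (SE 0.088) and -0.05 (SE 0.084). The 95% interval of the difference (limma) lay within 1.5-fold in either direction for 15 of the 20 cytosolic synthetases (75%) and for 5 of the 16 mitochondrial ones (31.2%), beside 27.3% of all 13038 genes tested. It lay within 2-fold for 18 and 11, beside 47.3% of all genes. The sets were not matched for level: the median control mean was 15.2 for the cytosolic and 3.30 for the mitochondrial synthetases. These shares are therefore not a comparison at equal level.

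**Figure D2:**
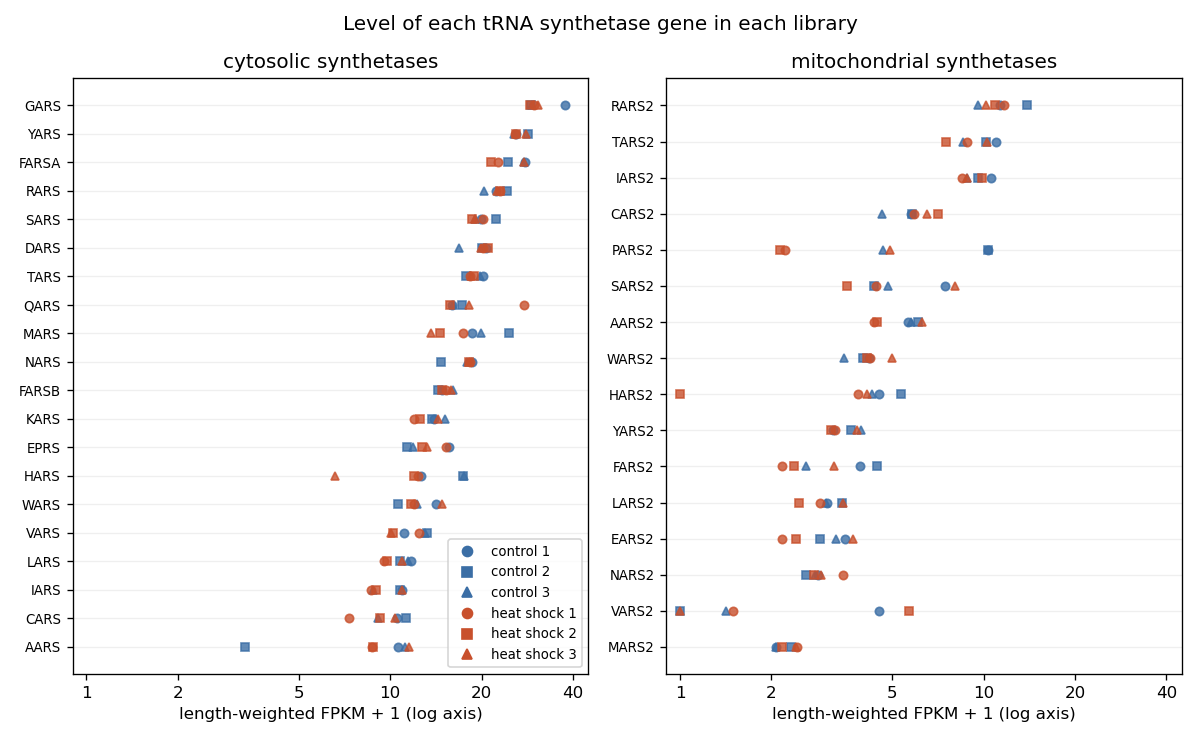
Each point is the length-weighted FPKM of a gene in a library, plus 1, on a log axis, with control libraries in blue and heat shock libraries in orange and the marker giving the replicate. Most cytosolic genes form tight clusters between 8 and 32, while HARS2 and AARS have 1 library, and VARS2 has 4, far to the left.

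On this measure 0 synthetases were called, with 0% of all genes called in either direction. At an unadjusted p under 0.05, 0 synthetases were higher, where 0.322% of all genes were, and 2 were lower (MARS and PARS2), where 2.2% of all genes were. CARS2 did not overlap upwards (1.36% of all genes) and HARS, HARS2 and MARS did not overlap downwards (5.41% of all genes). Without heat shock replicate 3, 11 synthetases lay below all control libraries on this measure, where 51% of all genes did. The smallest adjusted p among the synthetases was 0.881 here and 0.91 by summed FPKM.

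**Figure D3:**
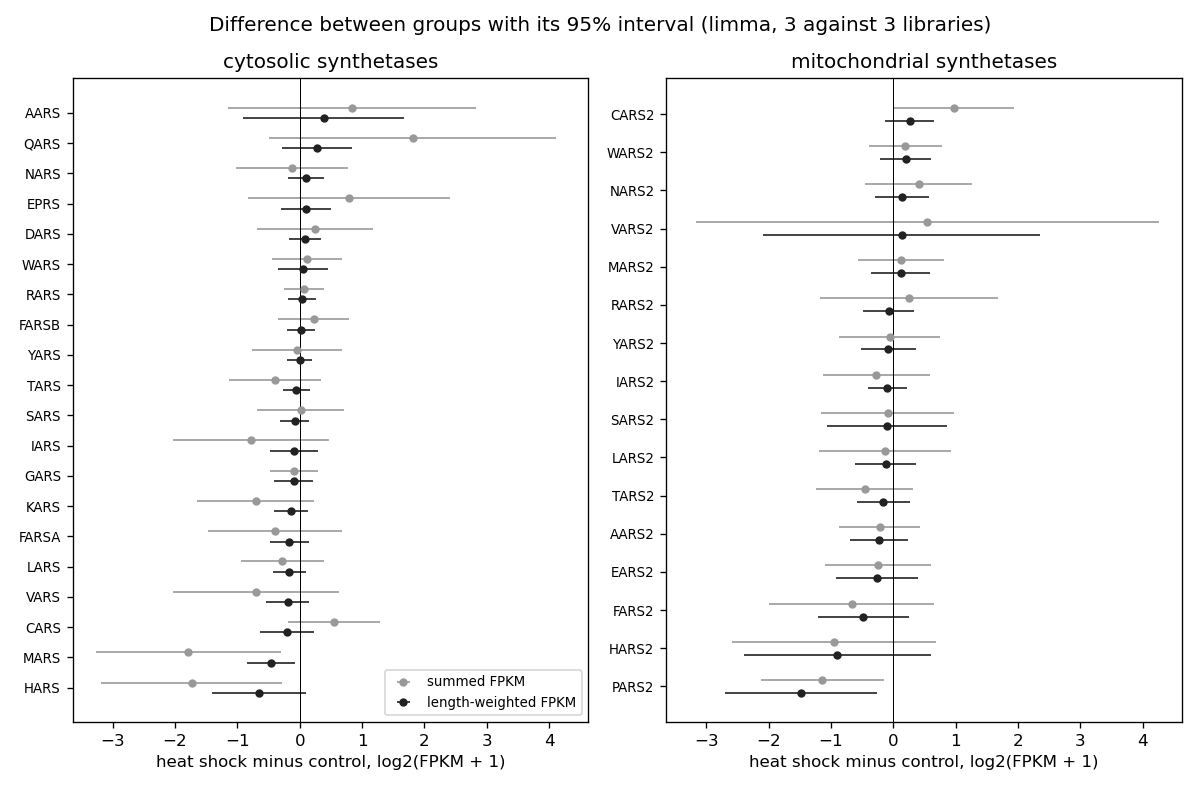
Points give heat shock minus control on the log2(FPKM + 1) scale with the 95% interval from limma, in grey for summed FPKM and in black for length-weighted FPKM, for 3 heat shock and 3 control libraries. The grey values run from -1.79 (MARS) to 1.81 (QARS), and the black values of the cytosolic genes from -0.66 (HARS) to 0.38 (AARS).

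Among the 8 genes of the multisynthetase complex, 4 had positive and 4 negative differences by length-weighted FPKM, with a median of -0.03 on the log2 scale, and the median of the 12 cytosolic genes outside the complex was -0.07. MARS, the methionyl-tRNA synthetase (chr12:57881736-57910438 in hg19, plus strand), had the highest mean summed FPKM of the 36 genes. Its summed FPKM was 43.4, 171 and 98.7 in control and 42.8, 13.7 and 27.8 in heat shock (log2 difference -1.79, SE 0.604, unadjusted p = 0.025, adjusted p = 0.91, limma). The control libraries were higher throughout, but control replicate 1 and heat shock replicate 1 nearly met. In control replicate 2, 96.2% of the value came from a single-exon transcript of 306 bases at the 3′ end, and in control replicate 3, 93.2% came from a transcript of 379 bases in 2 exons. By length-weighted FPKM the values were 17.6, 23.6 and 18.9 in control and 16.4, 13.6 and 12.6 in heat shock. The groups still did not overlap, and the log2 difference was -0.46 (SE 0.155, 95% interval -0.85 to -0.07, unadjusted p = 0.028, adjusted p = 0.881, limma).

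QARS, the glutaminyl-tRNA synthetase (chr3:49133365-49142562, minus strand), had the largest positive difference by summed FPKM. It was at 16.6, 22.5 and 16.9 in control and 235, 14.9 and 84.3 in heat shock (log2 difference 1.81, SE 0.940, adjusted p = 0.91, limma). Heat shock replicate 2 lay below all control libraries, so the groups overlapped. In heat shock replicate 1, a transcript of 199 bases in 2 exons held 477 of the 500 FPKM as deposited (95% interval of Cufflinks 398 to 556), and in heat shock replicate 3 one of 499 bases held 96.3%. The length-weighted values were 15.0, 16.3 and 15.2 in control and 26.7, 14.7 and 17.2 in heat shock, with a log2 difference of 0.27 (SE 0.223).

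EPRS showed the same picture in 1 library. Its summed FPKM was 15.0, 10.4 and 10.8 in control and 64.7, 11.8 and 12.3 in heat shock, and in heat shock replicate 1 a transcript of 702 bases held 90.4% of it. The length-weighted values were 14.6, 10.3 and 10.9 in control and 14.3, 11.7 and 12.3 in heat shock. The high library was no longer apart from the others. IARS, the isoleucyl-tRNA synthetase, had a summed FPKM of 14.5, 32.8 and 33.6 in control and 7.97, 13.3 and 26.6 in heat shock, and a length-weighted FPKM of 9.95, 9.76 and 7.77 in control and 7.64, 7.98 and 9.98 in heat shock. Its log2 difference was -0.79 (SE 0.510) on the first measure and -0.09 (SE 0.154) on the second. LARS, the leucyl-tRNA synthetase, had the lowest mean summed FPKM of the cytosolic genes, at 11.0, 13.5 and 14.8 in control and 8.56, 8.79 and 15.5 in heat shock. The groups overlapped. RARS, the arginyl-tRNA synthetase, varied least by summed FPKM among all 36 genes, between 19.2 and 22.3.

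HARS and HARS2 lie head to head on chromosome 5. HARS (chr5:140053490-140071312, minus strand) encodes the cytosolic and HARS2 (chr5:140071018-140078890, plus strand) the mitochondrial histidyl-tRNA synthetase, and the annotated transcripts overlap by 295 bases at their starts. The summed FPKM of HARS was 13.6, 53.5 and 53.7 in control and 12.4, 12.0 and 5.81 in heat shock. The groups did not overlap (log2 difference -1.73, SE 0.593, unadjusted p = 0.027, adjusted p = 0.91, limma), although control replicate 1 was close to heat shock replicates 1 and 2. In control replicate 2, 89% of the value came from a transcript of 588 bases at the 3′ end, and in control replicate 3 the whole value came from transcripts of 683 and 792 bases. The length-weighted FPKM was 11.6, 16.4 and 16.5 in control and 11.3, 11.0 and 5.57 in heat shock.

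Part of the HARS RNA was counted to no gene in the heat shock libraries. Cufflinks joined HARS with its downstream neighbour DND1 in all 3 of them, in transcripts of 3579, 3912 and 2757 bases at 5.26, 4.26 and 3.53 FPKM as deposited, and in none of the control libraries. Such joined transcripts were then counted at full length to each of their genes, bases of the neighbour included. On this count the length-weighted FPKM of HARS was 11.6, 16.3 and 16.6 in control and 15.3, 14.2 and 14.1 in heat shock. The heat shock libraries then lay inside the range of the control libraries, and the log2 difference was -0.01 (SE 0.162, 95% interval -0.42 to 0.40). In heat shock replicate 3 the joined transcript spans 140050381 to 140054866, and the annotated HARS reaches down only to 140053490. How much of the rise came from bases outside HARS was not computed.

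HARS2 was listed at 0 in heat shock replicate 2 and at 4.42, 3.90 and 5.10 summed FPKM in control and 2.88 and 4.74 in heat shock replicates 1 and 3. In the library at 0 it was joined with its neighbour ZMAT2 in a transcript of 1779 bases at 10.9 FPKM. With joined transcripts, its length-weighted FPKM was 3.52, 4.33 and 3.30 in control and 2.89, 3.36 and 3.13 in heat shock, and the groups overlapped (log2 difference -0.19, SE 0.15). AARS, the alanyl-tRNA synthetase, and VARS2, the mitochondrial valyl-tRNA synthetase, were touched by the same step. AARS was at 2.35 summed FPKM in control replicate 2, where transcripts joined with EXOSC6 were left out, and at 16.3 to 27.3 in the other 5 libraries. With joined transcripts its length-weighted FPKM was 9.61, 11.6 and 10.3 in control and 7.76, 7.84 and 10.5 in heat shock. The log2 difference was 0.38 (SE 0.514) without them and -0.25 (SE 0.158) with them. The joined transcripts extend down to position 70284134 and the annotated AARS only to 70286297, so the 11.6 holds bases outside AARS. The sign with AARS bases alone was not computed. VARS2 was listed at 0 in control replicate 2 and heat shock replicate 3 and reached 27.2 summed FPKM in heat shock replicate 2. With the transcripts joined to GTF2H4 its length-weighted FPKM was 3.51, 7.41 and 3.32 in control and 4.78, 4.70 and 6.71 in heat shock. On this measure the intervals of all 20 cytosolic synthetases lay within 2-fold, beside 45.2% of all 14269 genes tested, not matched for level. MARS was the 1 gene below without overlap (5.25% of all genes) and CARS2 the 1 gene above (1.42%). At an unadjusted p under 0.05, MARS and PARS2 were lower (1.98% of all genes) and 0 synthetases were higher (0.343%).

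**Figure D4:**
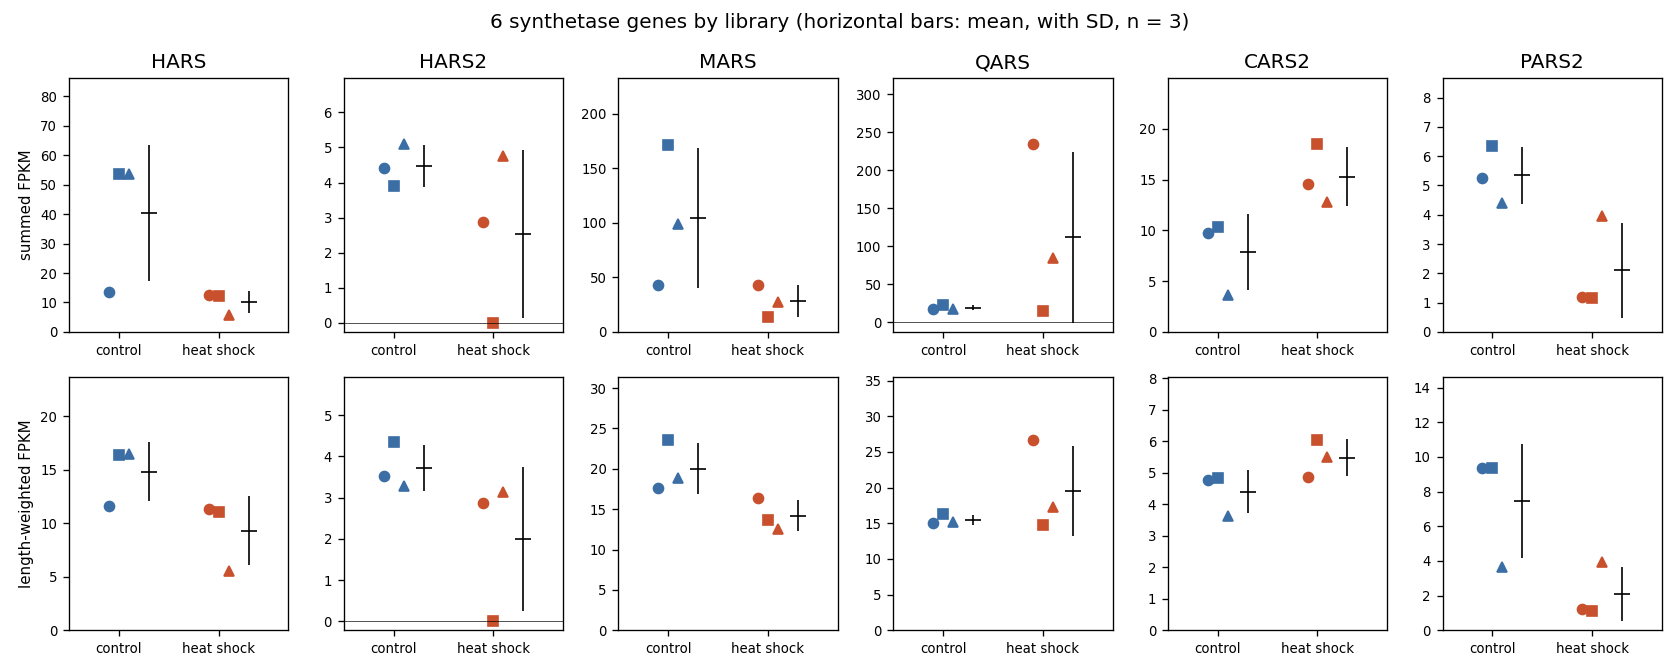
Values of 6 synthetase genes in each library are given as summed FPKM after the common factor (upper row) and length-weighted FPKM (lower row), with the marker giving the replicate and the horizontal bar and line the mean and SD of 3 libraries. HARS, MARS and QARS span 5.81 to 235 in the upper row and 5.57 to 26.7 in the lower row.

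Among the other cytosolic genes, CARS, the cysteinyl-tRNA synthetase, did not overlap by summed FPKM, at 12.7, 15.5 and 15.1 in control and 15.7, 33.7 and 18.5 in heat shock (log2 difference 0.55, SE 0.3). By length-weighted FPKM it was at 9.54, 10.3 and 8.14 in control and 6.33, 8.28 and 9.36 in heat shock, with a difference of the other sign (-0.21, SE 0.172), and the groups overlapped. WARS, the tryptophanyl-tRNA synthetase, was the second lowest cytosolic gene by mean summed FPKM, at 14.4, 11.4 and 14.5 in control and 12.7, 12.3 and 19.6 in heat shock. GARS had the highest mean length-weighted FPKM of all 36 genes, at 36.7, 28.0 and 28.4 in control and 28.7, 28.0 and 29.6 in heat shock. The groups overlapped in both. Of the 6 genes with TGATGCAA in the promoter, the length-weighted log2 differences were -0.05 for TARS, -0.09 for IARS, -0.21 for CARS, -0.46 for MARS, 0.38 for AARS and 0.10 for NARS. With joined transcripts, bases outside AARS included, the value of AARS was -0.25 and NARS alone was positive. The deposited comparison lists 6 further loci of VARS and 5 of VARS2 on alternate chromosome 6 sequences, and near-identical copies share reads. What such copies added to the per-library sums was not computed for each library. In control replicate 3, fragments on chromosome 6 itself held 89.1% and 10.9% of the summed FPKM of VARS.

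The median mitochondrial synthetase lay below the median cytosolic one in every library. By length-weighted FPKM the cytosolic median was 3.50, 3.62 and 4.03 times the mitochondrial median in control and 4.48, 4.41 and 3.40 times in heat shock, on the FPKM + 1 scale. By summed FPKM the ratios were 3.49, 4.67 and 5.75 in control and 4.38, 4.27 and 5.07 in heat shock. The groups overlapped on both measures. These ratios are a description of the 2 sets, which were chosen by name.

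**Figure D5:**
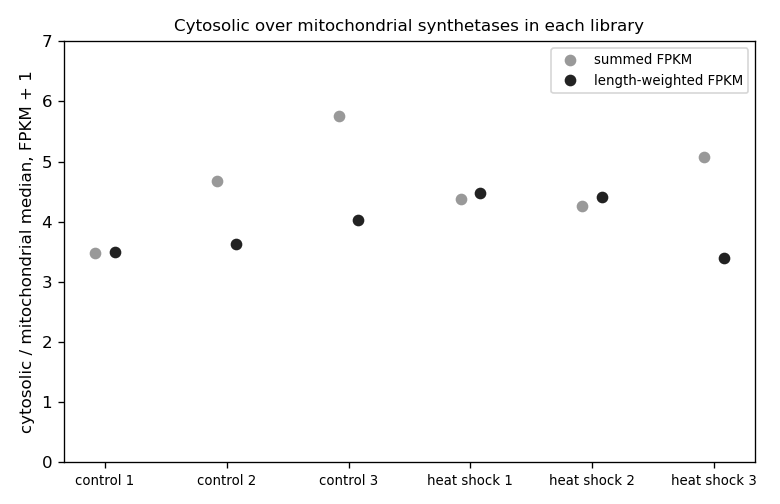
Each point is the median of the 20 cytosolic synthetases over the median of the 16 mitochondrial ones within a library, on the FPKM + 1 scale, by summed FPKM (grey) and length-weighted FPKM (black). All ratios lie between 3.40 and 5.75, and the control and heat shock libraries overlap.

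RARS2, the mitochondrial arginyl-tRNA synthetase, had the highest mean of the mitochondrial genes, at 15.1, 39.7 and 8.50 summed FPKM in control and 25.0, 13.0 and 27.7 in heat shock. IARS2 followed at 14.4, 10.1 and 13.2 in control and 7.51, 17.4 and 7.88 in heat shock. The lowest were MARS2, at 1.10, 1.33 and 1.05 in control and 1.44, 1.17 and 1.43 in heat shock, and EARS2, at 2.48, 2.21 and 2.32 in control and 1.17, 1.42 and 3.26 in heat shock. The groups overlapped in all 4 of these genes. FARS2, the mitochondrial phenylalanyl-tRNA synthetase, was at 5.74, 5.35 and 1.58 in control and 1.18, 1.39 and 4.28 in heat shock, with control replicate 3 inside the heat shock range.

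CARS2, the mitochondrial cysteinyl-tRNA synthetase (chr13:111293757-111358480, minus strand), was the 1 gene whose heat shock libraries lay above all control libraries on every one of the 3 measures. All 3 measures use a common factor. As deposited, CARS2 overlapped between groups, with heat shock replicate 3 at 6.24 and control replicate 1 at 9.10. Its summed FPKM was 9.71, 10.3 and 3.60 in control and 14.6, 18.5 and 12.8 in heat shock (log2 difference 0.97, SE 0.393, unadjusted p = 0.049, adjusted p = 0.91, limma). By length-weighted FPKM it was at 4.77, 4.82 and 3.63 in control and 4.88, 6.06 and 5.51 in heat shock, a log2 difference of 0.27 (SE 0.156, unadjusted p = 0.144, adjusted p = 0.881, limma). The gap between heat shock replicate 1 and control replicate 2 was small on this measure. Transcripts of 480 and 464 bases held 78.2% and 76.4% of its summed FPKM in heat shock replicates 1 and 2. NARS2, the mitochondrial asparaginyl-tRNA synthetase, did not overlap by summed FPKM, at 2.16, 1.93 and 2.09 in control and 5.37, 2.19 and 2.26 in heat shock, and overlapped by length-weighted FPKM, at 1.84, 1.61 and 1.79 against 2.44, 1.76 and 1.90.

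PARS2, the mitochondrial prolyl-tRNA synthetase (chr1:55222571-55230226, minus strand), had the lowest difference of the mitochondrial genes. Its summed FPKM was 5.26, 6.37 and 4.40 in control and 1.20, 1.14 and 3.96 in heat shock (log2 difference -1.14, SE 0.403, unadjusted p = 0.03, adjusted p = 0.91, limma). Heat shock replicates 1 and 2 were low, and heat shock replicate 3 was close to the controls. The control values came in part from assembled transcripts that ran beyond the annotated one: in control replicate 1 a single-exon transcript of 6525 bases (chr1:55221033-55227557) had 1.83 FPKM as deposited, and the annotated transcript had 1.00. The annotated transcript, of 2386 bases, had 1.78 FPKM as deposited in control replicate 3, 2.65 in heat shock replicate 2 and 1.93 in heat shock replicate 3. By length-weighted FPKM PARS2 was at 9.36, 9.34 and 3.66 in control and 1.21, 1.13 and 3.91 in heat shock, and control replicate 3 lay below heat shock replicate 3 (log2 difference -1.48, SE 0.486, unadjusted p = 0.026, adjusted p = 0.881, limma). With annotated transcripts alone the sign turned, at 0.29. For single genes, an exact two-sided permutation test of 3 against 3 libraries cannot go below p = 0.1, which every gene without overlap reached.

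The median length-weighted difference was -0.08 for the 19 class I and -0.10 for the 17 class II synthetases, beside -0.20 for all genes tested. A list of 14 partner genes was read from the same fits. It held AIMP1, AIMP2 and EEF1E1, scaffold proteins of the complex, and GATC, PET112 and QRSL1, which make glutaminyl-tRNA in mitochondria. It also held MTFMT, which formylates the initiator tRNA there, and SEPSECS and PSTK, which act on a tRNA already loaded. The others were TRNT1, XPOT, ELAC2, DTD1 and TARSL2, which end, export, trim, proofread or load tRNAs. Of the 14 partner genes, 12 were tested, and 0 passed an unadjusted p under 0.05 on either measure. By length-weighted FPKM 6 had positive and 6 negative differences, from -0.38 (TARSL2, a threonyl-tRNA synthetase-like gene) to 0.24 (DTD1). AIMP1 was at 4.65, 4.43 and 3.89 in control and 4.18, 4.65 and 4.68 in heat shock, and XPOT at 13.5, 11.8 and 11.6 in control and 12.2, 12.5 and 13.8 in heat shock. AIMP2 was listed at 0 in all 6 libraries.

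The deposited table gives the authors' pooled FPKM of each group. Over the 21 loci of the cytosolic synthetases the ratio of the authors' heat shock value to their control value had a median of 4.23, and over the 17 loci of the mitochondrial ones 4.13, beside 3.74 over all 11916 named loci above 1 FPKM in both. PARS2, in 1 locus with its neighbour TTC22, had the lowest ratio of the 38 loci, at 1.17. HARS (5.05) and MARS (4.55) lay above the cytosolic median of these ratios, although both were lower after heat shock by summed FPKM. CARS2, higher by summed FPKM, had a ratio of 5.29. The pooled control values of GARS and TARS, at 101 and 79.6, exceeded all their per-library control values, which were at most 35.2 and 20.4 as deposited. Pooled heat shock values of GARS, TARS and FARSA, at 400, 364 and 108, exceeded their heat shock libraries, at most 65.0, 43.4 and 47.9. Not every gene did so: QARS had 93.7 pooled and 500 in heat shock replicate 1. The pooled values, and so the ratios, are not means of these per-library values.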

How the data were processed

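Total RNA depleted of ribosomal RNA was sequenced from 3 control and 3 heat shock samples of HEK293 cells (TruSeq). Per the submitters' processing notes, reads passed FastQC 0.10.1 and Trimmomatic 0.3.0 and were mapped on hg19 by TopHat2. Cufflinks 2.0.2 then built transcripts library by library, and the deposited values are its FPKM with 95% intervals. The deposited comparison table (cuffmerge, cuffdiff) adds pooled FPKM per group, used as the authors' values, and the authors' own fold changes, p-values and q-values, which were not used. No read counts were used.

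FPKM were summed per gene over annotated transcripts and those grouped with them. Joined transcripts, which span several genes, were left out of the sums. Where they were counted, their full length went to each gene. Symbols came from RefSeq accessions for 96.7% of 40803 transcripts. Values were divided by the median-of-ratios factor over genes above 10 FPKM in all 6 libraries, because as-deposited FPKM of a library shared a factor. This factor went partly with the groups, at 2.13 and 2.32 in heat shock replicates 1 and 2 and 0.434 to 0.957 in the others. The scaling is therefore not neutral between the groups. Genes with a mean of at least 1 were tested with limma 3.58.1 (R 4.3.3; lmFit, eBayes with trend) on log2(FPKM + 1), which understates changes of low genes, with Benjamini-Hochberg adjustment. Fragments were assembled transcripts under 50% of the annotated length.

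Described per library were, in each compartment, the 2 genes highest and 2 lowest by mean, the 3 largest differences in each direction, genes without overlap, and HARS with HARS2; YARS, FARSB, TARS, RARS and GARS were added after their values were seen. The members, lists and motifs were chosen with earlier results of these data known. Alternatives were other scalings, pseudocount, minimum and transcript choices, eBayes without a trend, a replicate block, a term for libraries rich in unstranded transcripts and leaving out each library; length-weighted FPKM, joined transcripts and their left-out libraries were added after seeing the data. No intervals for depth were computed, since depth in counts is unknown and only relative depth could be read, from coverage over FPKM.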

Additional observations from a re-analysis of the deposited data

How the results depend on the processing

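Under 25 alternatives (17 planned, 8 added after the data were seen) 0 synthetases were called. The 36 log2 differences kept their sign in 762 of 881 values. The replicate block, eBayes without a trend and the changes of the minimum leave each log2 difference as it was, so no sign could change there. FPKM as deposited and annotated transcripts alone each changed 16 signs, and size factors over all genes changed 12. With FPKM as deposited, at an unadjusted p under 0.05 2 synthetases had higher and 0 had lower levels. Without overlap, 1 lay above and 1 below, against 3.71% and 2.26% of all genes. The medians were 0.78 (cytosolic) and 0.58 (mitochondrial). As deposited, 2 genes of all were called higher and 1 lower, and the median of all genes moved from -0.24 to 0.45. Of all genes at an unadjusted p under 0.05, 56.3% were higher there, against 21.6% after the common factor, 46.6% with size factors over all genes and 35.2% with TPM. Size factors over all genes gave 2 synthetases higher and 1 lower, and 1 below without overlap (2.7% of all genes). The medians were 0.35 and 0.22, the median of all genes was 0.08 and 1 gene of all was called higher. TPM gave 0 higher. A common factor over genes above 50 FPKM gave 0 higher and 1 above without overlap (1.27% of all genes). A pseudocount of 0.1, a minimum of 10 FPKM and eBayes without a trend each gave 0 higher, and the minimum moved the change of the cytosolic to mitochondrial gap from 0.01 to -0.34 (log2), with 24 of the 36 genes left. Annotated transcripts alone gave 0 lower, and 1 above and 0 below without overlap (4.54% and 4.28% of all genes). They reversed HARS (3.37), MARS (0.37) and PARS2 (0.29). This setting leaves out the assembled transcripts, which held all of the control values of HARS. Length-weighted FPKM gave 0 higher and 1 above without overlap; with joined transcripts it gave 0 higher, 1 above, 1 below, and 2 genes called in each direction. The cause was not tested for the rest.

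Leaving out 1 library gave, over both measures, 0 to 1 synthetases higher and 0 to 5 lower at an unadjusted p under 0.05. Without overlap, 1 to 6 lay above and 3 to 12 (by summed FPKM) or 11 (length-weighted) below. Of all genes, 2.52% to 4.39% lay above and 7.12% to 51% below without overlap in these settings. Among all genes, 0 to 4 were called higher and 0 to 1 lower. Heat shock replicate 3 set the highest count below: without it, 2980 of all genes were lower at an unadjusted p under 0.05, against 342 with it. With the replicate block, 1 synthetase was higher at an unadjusted p under 0.05 (CARS2) and 3 were lower, of which HARS also was without it; IARS and KARS came in (limma, unadjusted p = 0.032 and 0.011), and MARS and PARS2 no longer passed (limma, unadjusted p = 0.069 and 0.074). There 223 of all genes were lower in place of 342. Same-numbered libraries did not vary together (r = 0.03, -0.26 and -0.32, from deviations within each group of 3). Libraries of a group also differed in unstranded transcripts, so these correlations cannot show whether libraries were paired. The labels do not give pairs, and the numbers were not read as pairs. Cufflinks FPKM hold no counts, so a limit set by depth could not be given, and no result was set against relative depth (1.00 to 2.03).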
